A study of Homo sapiens with 6 samples.

Results

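The transcripts of 10 genes of the insulin and insulin-like growth factor (IGF) axis were followed in HepG2 cells, a human hepatoma line that keeps many functions of hepatocytes, with and without a water extract of the leaves of *Barringtonia racemosa*, a tropical plant. The group was built around IGFBP1, which was chosen from these arrays because its difference between treated and untreated cells was among the largest increases, and was filled up by name with IGFBP2, IGFBP3, IGFBP4, IGF2, IGF1R, INSR, IRS1, IRS2 and FOXO1. Of these 10 genes, 9 had transcript clusters whose platform annotation gives their symbol alone, which made 10 clusters (IGF1R has 2) of the 19291 clusters and 18372 genes that were analysed. The only cluster that carries the symbol IGF2 also carries INS-IGF2 and INS, so IGF2 was not analysed here. Because the group was assembled with this contrast known, the values of its members are given as a description. Counts of members past a threshold are given once, beside the share of all clusters, and are no test of the members.

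The arrays compare 3 samples of untreated cells with 3 samples of cells given 50 µg/ml of the extract for 24 h. The labels name HepG2 as the only cell line, give no other agent for either group, and do not say whether untreated cells received a vehicle. The platform was the Affymetrix Human Gene 1.0 ST array, which was given RNA from whole cultures, and a value below is a log2 expression value of a transcript cluster, so that 1 unit is a doubling. Values of different clusters are not compared with each other, since probes differ in brightness. The replicates are called biological in the labels without saying whether they came from separate cultures, so the spread between these samples may be technical. Standard errors below come from a linear model in which the variance of each cluster is drawn towards that of all clusters. They are therefore not a measure of this spread alone.

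As a stand-in for background, 378 clusters of olfactory receptor genes were used, on the untested assumption that most are silent in these cells. They had medians of 2.77 to 2.86 on the 6 arrays and 95th percentiles of 3.22 to 3.49. The 10 clusters of hepatocyte markers measured, among them albumin, alpha-fetoprotein and transferrin, lay above this 95th percentile on every array. The same held for 0 of 4 endothelial, 1 of 6 fibroblast, 1 of 3 islet, 2 of 5 leukocyte and 3 of 4 squamous clusters of the other lists. The median level of the squamous list was 3.86, 3.68 and 3.86 on the untreated and 4.31, 3.78 and 4.22 on the treated arrays, none of the marker clusters was past the thresholds of the design given below, and a part of such cells in the results was not tested. Over all clusters, leaf-treated array 2 correlated with the untreated arrays at 0.992 to 0.993, and leaf-treated arrays 1 and 3 at 0.984 to 0.988. In this respect array 2 stood apart from the other treated arrays and lay closer to the untreated ones. The olfactory receptor 95th percentiles were 3.43 and 3.49 on treated arrays 1 and 3, 3.26 on array 2 and 3.22 to 3.35 untreated. The 75th percentiles of the clusters analysed were 5.187 and 5.175 on treated arrays 1 and 3, 5.345 on array 2 and 5.264 to 5.336 untreated. Whether this shift of arrays 1 and 3 bears on the differences was not tested, and values on each array are therefore given below.

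Insulin and the IGFs act through related receptor tyrosine kinases on the cell surface. The receptors phosphorylate adaptor proteins of the IRS family, which recruit phosphatidylinositol 3-kinase and so activate the kinase AKT. AKT phosphorylates the transcription factor FOXO1 and keeps it out of the nucleus, and IGFBP1 is a classical liver gene that FOXO1 activates and insulin represses. IGF-binding proteins are secreted carriers that hold IGFs in the extracellular fluid and control their access to the receptor, and liver IGFBP1 is also known to respond to glucocorticoids, low oxygen and shortage of amino acids.

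Sequences close to the start of transcription were searched for short motifs that FOXO factors are known to bind. RefSeq promoter windows of GRCh38.p14, from 250 bases before to 50 bases after a start, were available for 8 of the 10 genes as 10 windows. IGFBP1 and IGF2 were not among them. The FOXO consensus GTAAACA, searched on both strands, was in 0 of these 10 windows and in 3.42% of all 35116 windows. The core of the insulin response element, CAAAACA, was in 1 of the 10, that of IRS2, and in 4.92% of all windows. The stretch of IRS2 is shown because it is the only match among the 8 genes with a window, and IGFBP1 could not be searched. That of TXNIP is shown because TXNIP was the pathway gene with the clearest difference below. Matches in other pathway genes were not listed, so this match does not set TXNIP apart from them. Capitals mark the motif, which reads as its reverse complement TGTTTTG in IRS2, and both stretches are on the minus strand of their chromosome.
IRS2, chr13:109786597-109786643: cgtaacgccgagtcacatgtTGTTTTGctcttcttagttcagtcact
TXNIP, chr1:145996677-145996723: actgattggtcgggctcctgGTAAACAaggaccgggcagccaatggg
A match is a run of letters and was not tested for binding. Sequence outside these windows was not searched, so a window without a match does not show that its gene lacks the motif.

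IGFBP1 was the one gene of the group with a large difference. Its log2 values were 6.27, 6.03 and 6.29 in untreated cells and 7.45, 7.27 and 7.29 in leaf-treated cells. All 3 treated arrays were above all untreated arrays, and the lowest treated value was 0.97 above the highest untreated one. The means were 6.20 ± 0.15 (SD, n = 3) and 7.34 ± 0.10 (SD, n = 3), a difference of 1.14 on the log2 scale (standard error, SE, 0.10), or 2.20 fold. Among the 19291 clusters this was the second largest increase. Treated array 2, which otherwise resembled untreated cells most, was 1.07 above the untreated mean, against 1.25 on array 1 and 1.09 on array 3. The values on arrays 2 and 3 were thus close to each other for IGFBP1. In cultures measured in bulk, more IGFBP1 per cell and more cells that make it cannot be told apart.

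**Figure D1:**
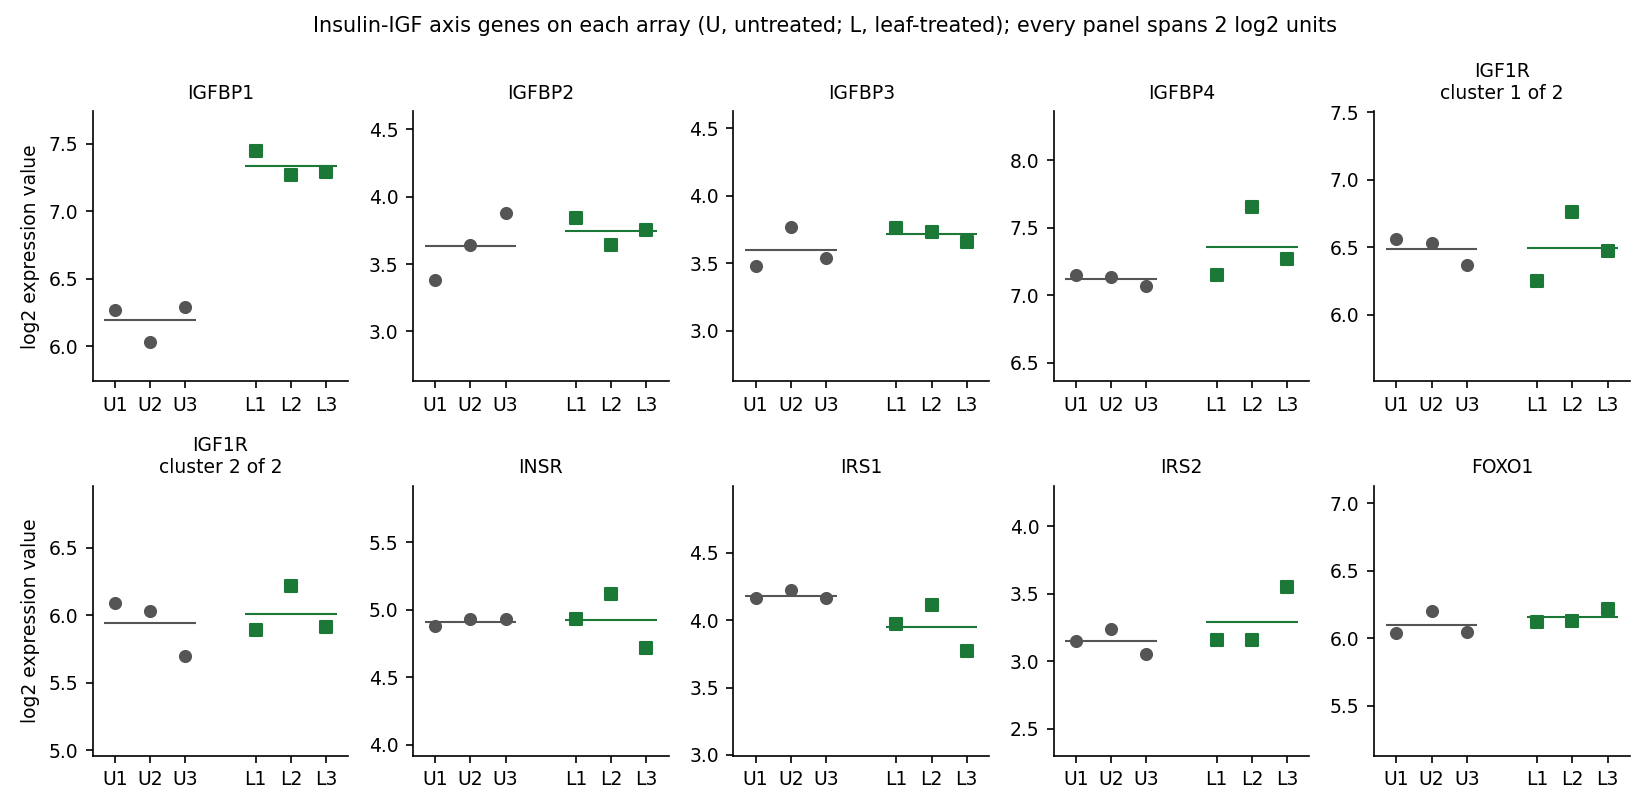
Log2 expression values (y axis, each panel spanning 2 log2 units around its own centre) of the 10 transcript clusters on the untreated arrays (U1 to U3, grey circles) and leaf-treated arrays (L1 to L3, green squares), with group means as lines. The treated and untreated arrays are separated by 0.97 for IGFBP1, which was chosen for its large difference.

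The other binding proteins had smaller differences. IGFBP3, the main carrier of IGFs in blood, is the next protein-coding gene to IGFBP1 on the same chromosome in the RefSeq annotation. Its values were 3.48, 3.77 and 3.54 without and 3.76, 3.73 and 3.66 with the extract, a difference of 0.12 (SE 0.09) that ran from 0.06 without untreated array 1 to 0.20 without untreated array 2. The highest of its 6 values was in an untreated sample, so the large difference of IGFBP1 was not accompanied by one of similar size at its neighbour. IGFBP2, a carrier that is abundant in fetal liver and also repressed by insulin, had values of 3.38, 3.64 and 3.88 in untreated and 3.84, 3.64 and 3.75 in treated cells. Its difference was 0.11 (SE 0.14), within the spread of the untreated arrays, and -0.02 without untreated array 1. Both IGFBP2 and IGFBP3 lay above the 95th percentile of olfactory receptor clusters on all arrays, but by little, and a change in a transcript near background is compressed on this scale.

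IGFBP4, a carrier that mainly inhibits IGF action and is cleaved by the protease PAPPA, was far above background. It measured 7.15, 7.13 and 7.07 in untreated cells and 7.15, 7.65 and 7.27 in treated cells. The difference was 0.24 (SE 0.13), and it rested on treated array 2, which was 0.53 above the untreated mean, against 0.03 and 0.15 for arrays 1 and 3. Without treated array 2 the difference was 0.09, and after quantile normalization of all 6 arrays it was 0.36 (SE 0.09).

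The receptors had differences close to 0. The insulin receptor, INSR, measured 4.88, 4.93 and 4.93 in untreated and 4.93, 5.12 and 4.72 in treated cells. The treated arrays lay on both sides of the untreated ones, with a difference of 0.01 (SE 0.11). IGF1R, the receptor for IGF1 and IGF2, was measured by 2 clusters. The first gave 6.56, 6.53 and 6.37 without and 6.25, 6.76 and 6.47 with the extract, a difference of 0.01 (SE 0.14). The second gave 6.09, 6.03 and 5.70 without and 5.89, 6.22 and 5.91 with the extract, a difference of 0.07 (SE 0.14). Both clusters of IGF1R, INSR and IGFBP4 were highest of the treated arrays on array 2, as was IRS1. Without treated array 2 the differences of INSR and the 2 IGF1R clusters were -0.09, -0.13 and -0.04. After median centring they were -0.07, -0.07 and -0.01. Leaving out untreated array 3 gave -0.05 for both IGF1R clusters, and leaving out untreated array 1 gave -0.01 for INSR. Their signs thus depend on single arrays and on the normalization.

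Of the adaptors, IRS1 had a small negative difference, inside the 5th to 95th percentiles of all clusters given below, and IRS2 was near background. IRS1, which couples the receptors to phosphatidylinositol 3-kinase, measured 4.16, 4.22 and 4.16 in untreated and 3.97, 4.11 and 3.77 in treated cells. Every treated array lay below every untreated array, although the gap was only 0.04, and the difference was -0.23 (SE 0.10), or 0.855 fold. Without treated array 3 it was -0.13. IRS2, an adaptor whose transcription insulin represses in liver, measured 3.15, 3.24 and 3.05 without and 3.16, 3.16 and 3.55 with the extract. Only 1 of its 6 values, on treated array 3, was above the 95th percentile of olfactory receptor clusters of its array. Its difference of 0.14 (SE 0.13) was 0.01 without that array and says little about IRS2 transcripts.

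FOXO1, a factor through which insulin controls IGFBP1, differed by less than the spread between arrays. It measured 6.04, 6.20 and 6.05 in untreated and 6.12, 6.13 and 6.22 in treated cells, a difference of 0.06 (SE 0.07). With arrays set to a common median the difference was -0.01, and after quantile normalization it was 0.17. FOXO1 is controlled mainly by phosphorylation and its place in the cell, which transcript levels do not measure.

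**Figure D2:**
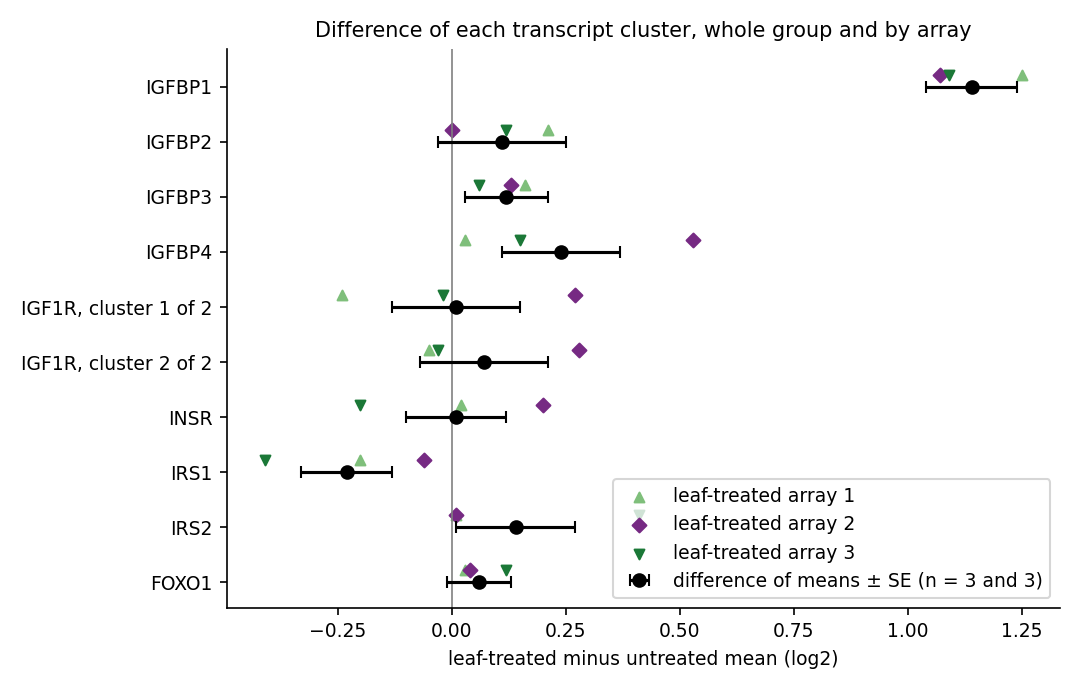
Leaf-treated minus untreated values (x axis, log2) of the 10 clusters, with black circles and bars for the difference of means and its limma standard error (3 arrays in each group) and coloured points for each treated array against the untreated mean. IGFBP1 lies at 1.14 with its treated arrays at 1.07 to 1.25, and the other clusters lie between -0.23 and 0.24.

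Read side by side, the differences of the 9 clusters other than IGFBP1 ran from -0.23 for IRS1 to 0.24 for IGFBP4. Over all clusters analysed, the 5th and 95th percentiles of the differences were -0.32 and 0.28, with a median of 0.01, and these 9 clusters lay between them. The thresholds of the series' own design were a 1.5-fold change and 0.05 for the p-value before adjustment. By limma 1 of the 10 clusters, IGFBP1, was past these thresholds as higher and 0 as lower. Over all clusters, 0.270% were past them as higher (52) and 0.570% as lower (110), and after centring on the median the counts were 27 and 208. In 1 of the 10 clusters, IGFBP1, every treated array was above every untreated array, where 6.14% of all clusters had this pattern. In 1, IRS1, every treated array was below, where the share was 7.41%. After Benjamini-Hochberg adjustment limma called 1 of all clusters (0.00518%), which was not among the 10. As the contrast served to choose the group, nothing is read from these counts of its members. Of the 10 clusters, those of INSR, IRS1 and IRS2 hold exactly the same value on 2 or more arrays, as do 41.1% of all clusters.

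Genes of the axis outside these 10 were taken from 5 lists, of which 95 genes had 100 clusters. The lists too were drawn up with results of this contrast known, so the p-values and calls below, which come from the limma fit over all 19291 clusters, are not independent evidence for any list or gene. TXNIP, which encodes a thioredoxin-binding protein that limits glucose uptake and is known as a target of FOXO1 and of the glucose sensor MLXIPL, was the single one of the 100 clusters past the thresholds of the design as higher. Its values were 7.29, 7.41 and 7.34 in untreated cells and ran from 7.99 to 8.17 in treated cells, which on treated arrays 1, 2 and 3 was 0.65, 0.82 and 0.65 above the untreated mean. All treated arrays were above all untreated ones, array 2 most of all. The difference was 0.71 (SE 0.08, limma adjusted p = 0.19), or 1.63 fold, and it does not pass the adjustment. None of the 100 was past the thresholds as lower. The analysis of variance of the series' design gave the same counts of 1 and 0, and limma gave 7 higher and 4 lower clusters at p under 0.05 without adjustment. Over all 19291 clusters this held for 3.87% as higher (746) and 5.90% as lower (1139), which are the shares to set beside the counts of each list.

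Among FOXO-regulated genes, 1 of 21 clusters was past the thresholds, 1 was higher and 1 lower at an unadjusted limma p under 0.05, and the median difference of the list was 0.03, against 0.01 over all clusters. BCL6, a transcriptional repressor, had the second smallest p of this list, with values of 5.24, 5.50 and 5.34 without and 4.87, 5.26 and 4.41 with the extract, a difference of -0.51 (SE 0.21, limma adjusted p = 0.51) that was -0.30 without treated array 3. The gluconeogenic enzymes PCK1 and G6PC1, named here for their textbook role and not by the rule for named genes, had differences of 0.06 and 0.03. G6PC1 lay at 2.84 to 2.93 on all arrays, at the level of olfactory receptor genes. PCK1 lay at 3.36 to 3.55, close to the 95th percentiles of those genes, which were 3.22 to 3.49. At such levels a decrease of G6PC1 could not have been seen, and a change of PCK1 would be compressed.

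Among other ligands, receptors, carriers and proteases of the IGF system, 0 of 15 clusters were past the thresholds (median difference 0.06), with 1 higher and 1 lower at an unadjusted limma p under 0.05. HTRA1, a secreted serine protease that can cleave IGF-binding proteins, measured 4.17, 4.44 and 4.38 without and 4.74, 4.52 and 5.00 with the extract. The groups did not overlap, and the difference was 0.42 (SE 0.14, limma adjusted p = 0.50). IGF2BP1, an RNA-binding protein named for its binding to IGF2 mRNA, measured 6.67, 6.17 and 6.96 without and 6.09, 6.23 and 5.80 with the extract. The groups overlapped through untreated array 2, and the difference was -0.56 (SE 0.21, limma adjusted p = 0.51).

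In the relay from the receptors to AKT, mTOR and FOXO, 0 of 40 clusters were past the thresholds (median difference 0.03), with 4 higher and 0 lower at an unadjusted limma p under 0.05, of which 2 are clusters of PDPK1 with identical values. FOXO4, a relative of FOXO1, had a difference of 0.36 (SE 0.12, limma adjusted p = 0.50), and its values of 3.05 to 3.65 were near background. PDPK1, the kinase that activates AKT, has 4 clusters. The identical 2 gave 0.36 (SE 0.13, limma adjusted p = 0.51), and the others gave 0.25 (SE 0.13) and 0.17 (SE 0.12) with overlapping groups. RHEB, the GTPase that activates mTOR, was chosen after its values were seen because its 2 clusters disagreed. One gave 8.18, 8.07 and 8.13 without and 7.85, 8.04 and 8.07 with the extract. The other gave 7.14, 7.07 and 7.13 without and 6.29, 7.14 and 5.57 with it, so that treated array 2 lay at the level of untreated cells.

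Of lipid synthesis genes that insulin induces, 0 of 10 clusters were past the thresholds (median difference 0.11), with 1 higher and 1 lower at an unadjusted limma p under 0.05. ACLY, which makes cytosolic acetyl-CoA, had a difference of 0.26 (SE 0.10, limma adjusted p = 0.51), with every treated array above the untreated ones, most of all array 2, without which it was 0.15. ACACA, which carboxylates acetyl-CoA in the step before FASN, had 0.06 (SE 0.08) and was added after its value was seen. FASN, fatty acid synthase, had -0.29 (SE 0.10, limma adjusted p = 0.50), with every treated array below.

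Transcription factors known to act on IGFBP1 gave 0 of 14 clusters past the thresholds (median difference -0.05), with 0 higher and 1 lower at an unadjusted limma p under 0.05. NR3C1, the glucocorticoid receptor and an activator of IGFBP1, measured 5.44, 5.34 and 5.61 without and 4.72, 5.35 and 4.94 with the extract. Treated array 2 lay among the untreated arrays, and the difference was -0.46 (SE 0.17, limma adjusted p = 0.51). FOXA1, a forkhead factor of the liver lineage, had a difference of -0.17 (SE 0.07, limma adjusted p = 0.51), which was -0.07 (SE 0.10) after quantile normalization. The counts for lower clusters in the 5 lists depended on single arrays. Without treated array 2, 4 of the 100 clusters were past the thresholds as lower, namely IGF2BP1 at -0.65, BCL6 at -0.72, NR3C1 at -0.64 and 1 cluster of RHEB at -1.18. Without untreated array 2 it was IGF2BP1 alone, at -0.77. TXNIP was past them whichever array was left out, at 0.65 to 0.74.

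**Figure D3:**
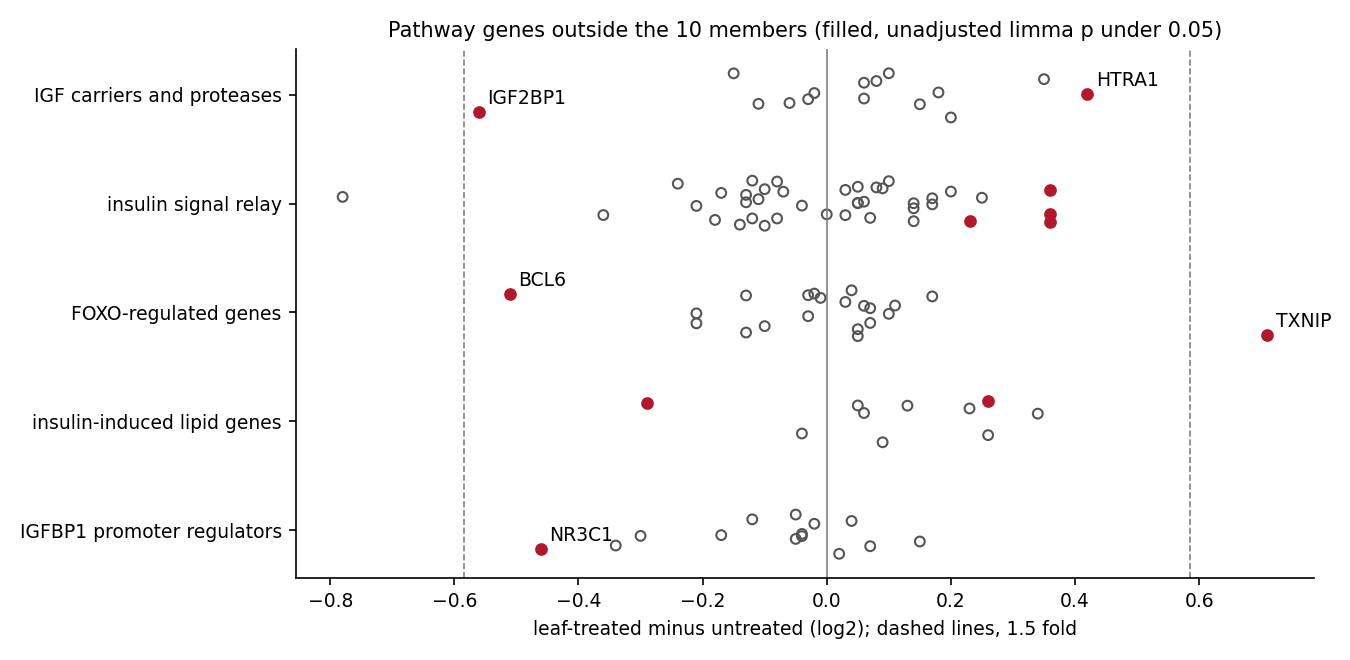
Leaf-treated minus untreated differences (x axis, log2) of the clusters of the 5 lists of pathway genes (rows, points spread vertically for legibility), filled where the unadjusted limma p is under 0.05, with dashed lines at a change of 1.5 fold. TXNIP at 0.71 is the single filled point beyond a dashed line.

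The profile of IGFBP1 over the 6 arrays was compared with that of every other cluster, after subtracting from each the mean of its untreated arrays. Likeness was measured as the root mean square distance of the 6 log2 values, which is 0 for identical profiles, and it uses the contrast that chose IGFBP1. The nearest were 1 of the 10 clusters of LRRFIP1, EGR1, TUBB2B and BNIP3L, each at 0.28, and ALDOC at 0.30. EGR1, an immediate early transcription factor, was 0.92, 0.88 and 0.70 above its untreated mean on treated arrays 1, 2 and 3. BNIP3L, a mitophagy receptor, was 0.82, 0.90 and 0.64 above, TUBB2B, a beta-tubulin, 1.04, 0.94 and 0.54, and the cluster of LRRFIP1 1.34, 0.76 and 0.68. ALDOC, a glycolytic aldolase, was 0.66, 1.24 and 0.90 above. IGFBP1, at 1.25, 1.07 and 1.09, varied less over the treated arrays than the cluster of LRRFIP1, TUBB2B and ALDOC. After quantile normalization 4 of the 5 were still among the nearest 5. The members other than IGFBP1 were farther away, at distances of 0.67 to 0.98, which restates their smaller differences and is no separate result.

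**Figure D4:**
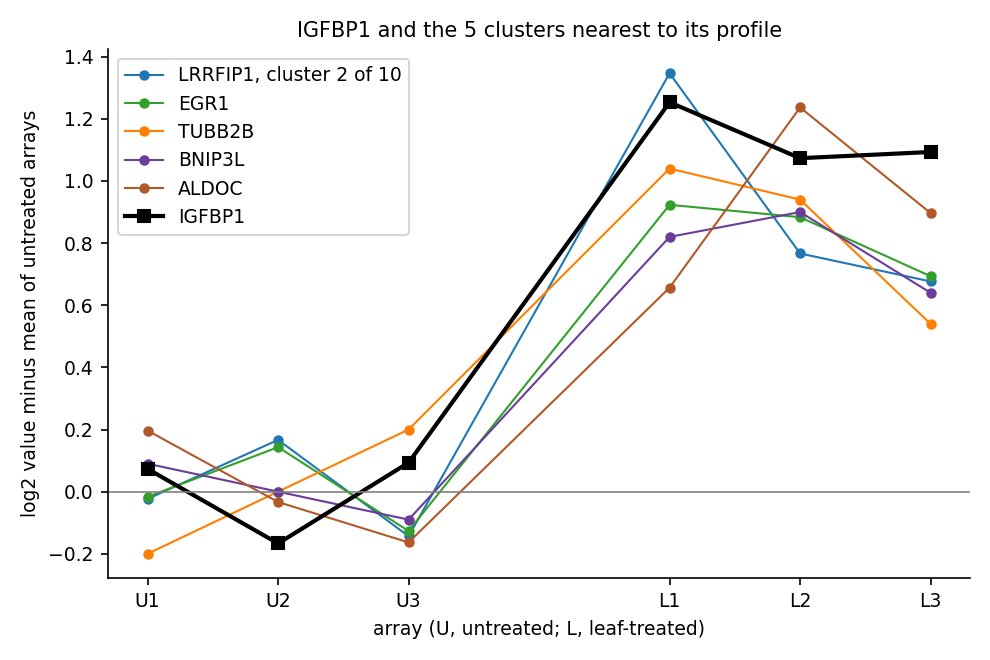
Log2 value minus the mean of the untreated arrays (y axis) on each array (U, untreated; L, leaf-treated) for IGFBP1 (black squares) and the 5 clusters nearest to it; lines join the values of 1 cluster and carry no order of arrays. IGFBP1 lies at 1.07 to 1.25 on the treated arrays, and the nearest clusters at 0.54 to 1.34.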

How the data were processed

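Expression was deposited by the authors as log2 values of transcript clusters on 6 Affymetrix Human Gene 1.0 ST arrays, 3 untreated and 3 leaf-treated. GCOS, Partek and RMA are credited in the submitters' processing notes. RMA is a method that subtracts background, normalizes between arrays and summarises probes. The sources used here give no versions, options or genome build. Of 33297 rows, 4468 were 0 on all arrays and left out. Of the rest, 19291 had 1 gene symbol in the platform annotation, 1735 had several and 7803 none. Symbols were checked through Entrez identifiers against RefSeq, which held 19429 of the 19460 rows with 1 symbol.

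A linear model without covariates (lmFit and eBayes of limma 3.58.1, R 4.3.3) was fitted over the 19291 clusters, with Benjamini-Hochberg adjustment. The code was tested on simulated data. With 6 arrays, their number sets the precision. The members and lists were chosen with earlier results of these data known. Named genes were all clusters of the members, clusters of each list past the thresholds of the design, the 2 with the smallest p in each list, and the 5 nearest to IGFBP1. Alternatives were quantile normalization, median centring, array weights, an analysis of variance, removal of dim clusters, a robust fit with an intensity trend, all rows above 0, the mean of a gene's clusters, removal of each array in turn, and a block for the replicate number.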

Additional observations from a re-analysis of the deposited data

How the results depend on the processing

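The difference of IGFBP1 was 1.05 to 1.26 over the 11 alternatives run for it, and 1.05 to 1.19 when 1 array was left out. TXNIP stayed higher and past the thresholds of the series' design in its 15 alternatives (0.63 to 0.83). Pathway clusters past the thresholds as lower numbered 3 after median centring, 2 with array weights and 0 to 4 when 1 array was left out. Over all clusters, 27 were higher and 208 lower after median centring, 82 higher with array weights, 88 higher with all rows, and 33 higher and 68 lower by the analysis of variance. Leaving out 1 array gave 41 to 167 higher and 68 to 323 lower, with the highest of both without treated array 2. The lower count was 68 without untreated array 1 and 73 without treated array 3. After adjustment, 8 clusters were called after quantile normalization, 3 after median centring, 3 with array weights, and 2 each without dim clusters, with the intensity trend, with all rows and with the mean of a gene's clusters. The call of 1 cluster was lost (0 called) by the analysis of variance, with the replicate number as a block and without any 1 array, with 1186, 1681 and 954 to 3862 clusters at an unadjusted p under 0.05. The labels do not say whether the replicate numbers pair the arrays. Same-numbered arrays deviated from their group means with correlations of -0.11, -0.18 and 0.12, and other pairs of a treated and an untreated array with -0.19 to 0.27. With 3 arrays in each group these values cannot settle whether there was a pairing. With the replicate block the thresholds of the design were passed by 59 higher and 106 lower clusters. The cause of these shifts was not tested. IRS2 and other clusters near background could not show a decrease.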
